A study of Drosophila melanogaster with 16 samples.

Results

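This section describes single S2 cells held for 4 h in Krebs Ringer bicarbonate buffer, set against S2 cells held for 4 h in Schneider's medium on the same plates. S2 is a cell line derived from Drosophila melanogaster embryos, with features of hemocytes, the blood cells of the fly. All cells came from a clone carrying FMR1-ADARcd-V5, a fusion of the RNA-binding protein FMR1 to the catalytic domain of the editing enzyme ADAR, under a metallothionein promoter that copper switches on. On each of 2 plates, well columns 1 to 6 held cells with 4 h of copper induction followed by 4 h in Schneider's, and well columns 7 to 12 held cells with 4 h of induction followed by 4 h in Krebs Ringer. Wells were chosen by the population that the plate layout gives for their position. The layout names the population of columns 7 to 12 only by a code (4I_4St), which does not name Krebs Ringer, and the buffer was taken from the sample labels, which give it for these columns. Next, a well was kept when it had at least 4000 reads at positions called A-to-G with quality over 250. This kept 184 of 192 Krebs Ringer wells and 183 of 192 Schneider's wells, out of 696 kept wells and 768 wells in all. The remaining wells held cells with 4 h in 0.5 mM arsenite in Schneider's (175 kept), cells with 2 h of induction and 2 h in Schneider's, called the short induction here (154 kept), or no cell (column 24). The buffer and the block of well columns go together on both plates, so their contributions cannot be told apart.

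ADAR turns adenosine into inosine, which sequencing reports as guanosine, so that an RNA met by the fusion carries A-to-G changes. FMR1, the fly FMRP, binds many mRNAs and enters stress granules, the cytoplasmic assemblies of stalled mRNAs and proteins that form under arsenite. Krebs Ringer bicarbonate buffer is a salt solution without amino acids. In amino acid-starved cells the kinase TOR is switched off, 4E-BP and FOXO target genes come on and growth slows, and starved S2 cells gather components of the ER exit sites into bodies of their own. The comparison asks which RNAs the fusion edits, and which RNAs take more or fewer reads, when cells lose their medium in place of meeting arsenite.

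Reads here are molecules left after the collapse of molecular identifiers, counted where the deposited variant table lists a position. Krebs Ringer wells had a median of 20182 reads at A-to-G positions on plate 1 and 17649 on plate 2, and Schneider's wells 23126 and 21129, so that the Krebs Ringer wells were the shallower ones on both plates. The deepest Krebs Ringer well had 79262 reads. All kept wells of one plate and population were summed into a pool, and the plate is the replicate (n = 2 pools per group). Nothing in the labels says that the plates came from separate cultures, so p-values measure only the spread between plates, which may be technical. Markers of the labelled cell type were present in part: 8 of 11 hemocyte markers passed the minimum of reads, and Hml, NimC1 and PGRP-LC did not. The summed level of the 8 was 5165 and 4645 RPM (reads scaled to the total of the pool) in Schneider's and 5384 and 5003 in Krebs Ringer. Most of this was Pxn, which encodes peroxidasin, at 4075 and 3440 RPM in Schneider's. He and Ppn were at 2.40 RPM or less in every pool. Only 1 of 6 neuronal markers (elav), 1 of 4 glial, 1 of 5 muscle and 1 of 4 germline markers passed, each at 13.0 to 28.6 RPM in these 4 pools. He and Ppn lay below these. RPM counts only reads at variant positions, so these levels do not rank genes or cell types.

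Editing was higher in Krebs Ringer than in Schneider's on both plates. The edited share, the reads with G over all reads at 93024 A-to-G positions, was 5.27% and 4.66% in the Schneider's pools of plates 1 and 2. In Krebs Ringer it was 7.68% and 8.02%. Both Krebs Ringer pools lay above both Schneider's pools, and the means were 7.85% ± 0.24 and 4.97% ± 0.44 (SD, n = 2), a 1.58-fold difference. The exact two-sided permutation test gave p = 0.333, which is the smallest that 2 pools against 2 allow. The uninduced bulk sample of the series had 0.453% edited reads at the 23086 of these positions found there (95% Clopper-Pearson interval 0.429 to 0.478%, counting error only). As a background from a change that ADAR does not make, 648 A-to-C positions called at the same quality read the changed base in 6.62% and 6.09% of reads in Schneider's and in 6.75% and 5.91% in Krebs Ringer, and these groups overlapped (exact permutation p = 1.0). They were called for carrying that change, so their share is not an error rate for the A-to-G positions. Beside these pools, the arsenite pools had 12.4% and 11.6% and the short induction pools 4.51% and 4.35%.

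Single wells differed far more than the pools did. The edited share per Krebs Ringer well ran from 0.490% to 29.2% on plate 1, with a median of 5.54%, and from 0.662% to 28.1% on plate 2, with a median of 5.81%. Schneider's wells ran from 0.509% to 20.5% and from 0.336% to 21.4%, with medians of 3.85% and 3.84%. The distributions overlapped over most of their range and parted at the top. More than 10% of reads were edited in 34 of 91 and 25 of 93 Krebs Ringer wells (37.4% and 26.9%), against 14 of 92 and 15 of 91 Schneider's wells (15.2% and 16.5%). Barely edited wells, under 1%, were found in both: 13 and 7 in Krebs Ringer, 13 and 19 in Schneider's. Within the Krebs Ringer wells the edited share was hardly tied to depth, with Spearman correlations of −0.07 (n = 91) and 0.12 (n = 93) across wells. In Schneider's they were −0.04 (n = 92) and −0.30 (n = 91).

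**Figure D1:**
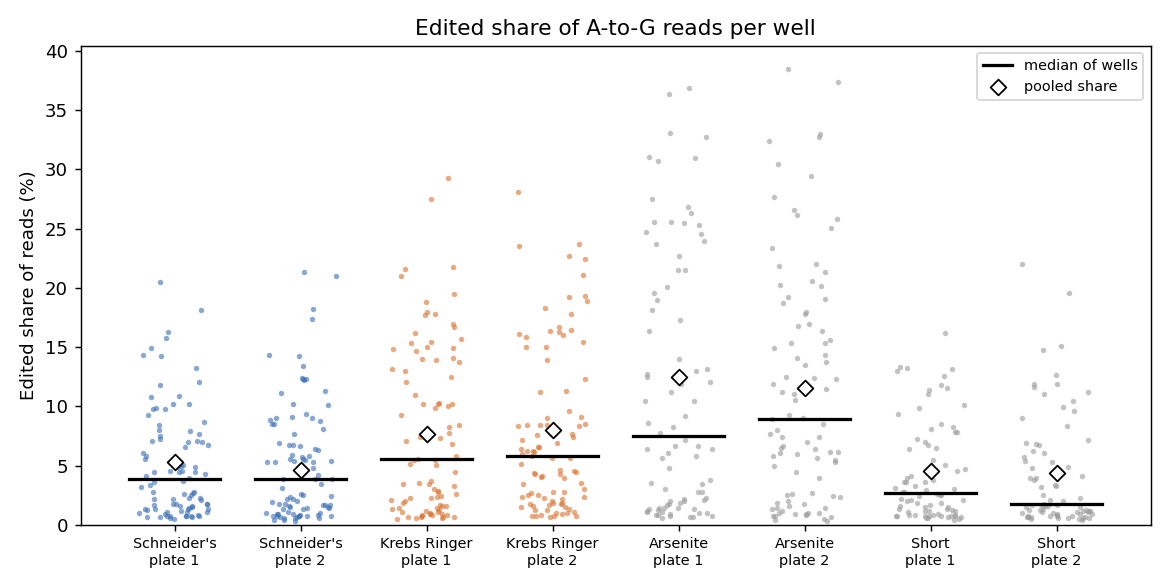
Edited share of A-to-G reads (%) in each kept well, by population and plate. Points are wells, bars are the medians of wells and diamonds the pooled shares. Krebs Ringer medians (5.54% and 5.81%) lie above those of Schneider's (3.85% and 3.84%), and wells near 1% or under are present in all populations.

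The RNA of the fusion itself was much higher in Krebs Ringer. The table cannot separate the fusion from the genes it was built of, so its level was read from Adar (FBgn0026086, X:1773725-1788065) and Fmr1 (FBgn0028734, 3R:10101420-10110121, BDGP6). Adar took 519 and 380 RPM in the Schneider's pools and 2786 and 2616 in the Krebs Ringer pools. Both Krebs Ringer values were far above both Schneider's values, a 6.07-fold rise on the scale of log2(RPM + 1) with a log2 difference of 2.60 ± 0.11 (SE, limma adjusted p = 1.1e-10). Fmr1 took 904 and 745 RPM in Schneider's and 4202 and 4014 in Krebs Ringer, a log2 difference of 2.32 ± 0.09 (limma adjusted p = 4.0e-11). MtnA (3R:9783407-9784370), the endogenous copper-responsive metallothionein, moved with them, from 175 and 164 RPM to 653 and 694 (log2 difference 1.98 ± 0.10). MtnD and MtnE rose as well, by 1.19 ± 0.25 and 1.29 ± 0.35 on the log2 scale (limma adjusted p = 0.0038 and 0.021). So 3 of the 8 measured RNAs of metallothioneins and copper handling rose and none fell, against 4.61% and 9.23% of all RNAs, and the copper handling genes of that list were not called. Other populations on these plates also stood above Schneider's. Adar took 1469 and 1779 RPM in arsenite and 2270 and 1586 in the short induction. Fmr1 took 2513 and 2829 in arsenite and 3030 and 2249 in the short induction. For MtnA these were 449 and 438, and 284 and 253. In Adar, Fmr1 and MtnA the Krebs Ringer pools were the highest and the Schneider's pools the lowest. For MtnE the Krebs Ringer pools (8.11 and 19.5 RPM) lay below arsenite (28.2 and 20.2) and the short induction (41.5 and 31.1). MtnD overlapped between them, at 15.6 and 21.2 RPM in Krebs Ringer, 19.55 and 15.7 in arsenite and 15.0 and 18.3 in the short induction.

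Across wells, editing went with the level of the fusion RNA. The median well had 17.6 and 16.7 Adar reads per 10000 reads in Krebs Ringer and 3.73 and 3.13 in Schneider's. The Spearman correlation of the Adar level with the edited share was 0.75 (n = 91 wells) and 0.67 (n = 93) in Krebs Ringer, and 0.40 (n = 92) and 0.38 (n = 91) in Schneider's. Wells share their plate and library preparation, and both measures come from the same reads, so no test was made. Within bins of the Adar level from 4 to 32 reads per 10000, the medians over the wells of both plates stood in the other order. Among wells with 4 to 8 Adar reads per 10000, the median edited share was 2.42% in 30 Krebs Ringer wells and 4.56% in 46 Schneider's wells. Between 8 and 16 it was 3.89% in 24 wells against 6.02% in 23. Between 16 and 32 it was 6.90% in 38 Krebs Ringer wells, with 4 Schneider's wells left at 7.56%. Pools made only of wells with 4 to 16 Adar reads per 10000, a range set after seeing the data, had edited shares of 5.69% and 5.47% in Krebs Ringer (23 and 31 wells) and of 5.58% and 6.31% in Schneider's (38 and 31 wells). With the fusion level matched in this way, the difference of the means was −0.37 percentage points and the pools overlapped. On plate 1 the pooled share stayed slightly higher in Krebs Ringer, and on plate 2 it was lower. Between 16 and 32 the medians of plate 1 stood at 6.69% in 18 Krebs Ringer wells and 4.19% in 2 Schneider's wells. Of the Krebs Ringer wells, 48 of 91 and 47 of 93 had 16 or more Adar reads per 10000, against 6 of 92 and 2 of 91 Schneider's wells. The match was coarse: in the range of 4 to 16 the median Adar level was 7.83 and 6.85 in Krebs Ringer and 5.77 and 7.78 in Schneider's. This range lies below the median Krebs Ringer well and above the median Schneider's well, so it takes opposite sides of the 2 distributions. Whether the fusion level accounts for the difference in editing was not tested.

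**Figure D2:**
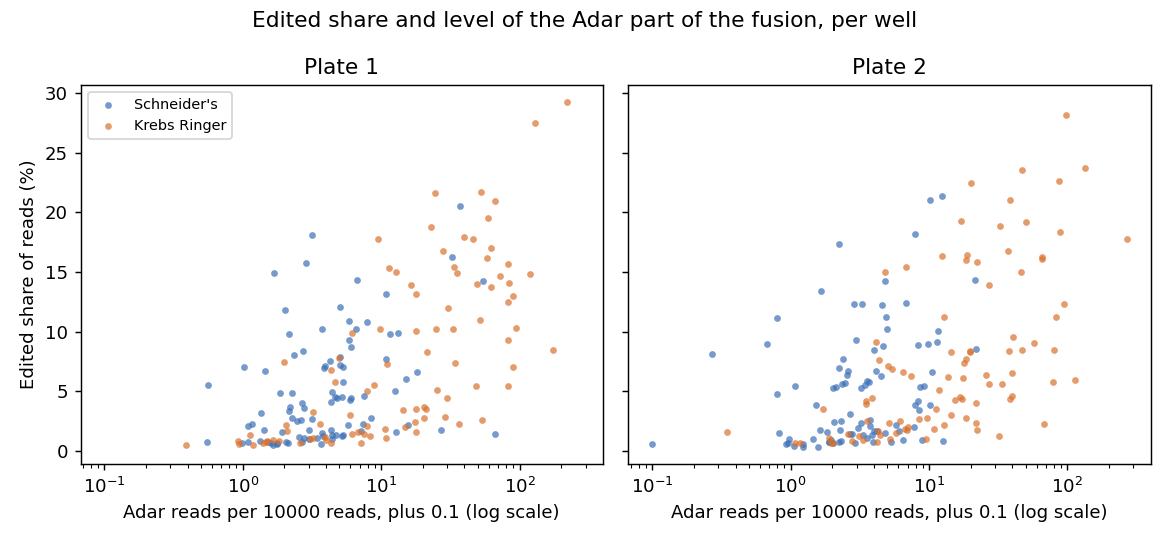
Edited share of reads (%) against Adar reads per 10000 reads plus 0.1 (log axis), for each plate, with 1 point per kept well of Schneider's and Krebs Ringer. The Krebs Ringer wells spread to the right, to 222 and 269 Adar reads per 10000, and their edited share is highest there, while at 4 to 16 Adar reads per 10000 their medians (3.45% and 3.02%) are no higher than those of the Schneider's wells (4.75% and 6.28%).

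Well columns within a block varied without a common order on both plates. In Krebs Ringer the median edited share by column lay between 3.27% (column 12) and 10.8% (column 7) on plate 1, and between 3.48% (column 9) and 9.83% (column 11) on plate 2, from 14 to 16 wells each. In Schneider's it lay between 1.77% and 6.02% on plate 1 and between 1.84% and 7.18% on plate 2. The column medians of both buffers overlapped. For the Adar level they did not: the lowest Krebs Ringer column was at 8.38 reads per 10000 and the highest Schneider's column at 4.62.

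Per RNA, edited shares shifted upward as a group. Tested were 4020 RNAs with at least 20 reads in every pool and an edited read in any of them. Of these, 2482 (61.7%) had both Krebs Ringer pools above both Schneider's pools and 97 (2.41%) had both below. RNAs with no edited read in any of these pools did not enter, so edited shares of all RNAs refer to this set. The median difference was 3.53 percentage points, and the median RNA went from 4.56% to 8.43%. At the threshold of limma p under 0.01, 224 RNAs (5.57%) were higher and 4 (0.0995%) lower, and with the plate as a block 108 were higher and 6 lower. None passed the Benjamini-Hochberg adjusted threshold of 0.05 (lowest adjusted p = 0.169), although 938 had an unadjusted p under 0.05 (limma). With limma's spread fitted as a trend on reads, 178 RNAs were higher and none lower at the adjusted threshold. Divided by the share of all reads of each pool, 47 RNAs remained higher and 21 were lower, and in the wells matched for Adar 15 were higher and 13 lower of 2550. Leaving out 1 Schneider's pool left 20 or 24 RNAs higher. The counts differed by read depth: both pools lay above in 42.6% of the 1011 RNAs with the fewest reads and in 81.9% of the 1005 RNAs with the most, while the median difference went from 4.64 to 2.88 percentage points and the share called higher from 6.63% to 2.29%.

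**Figure D3:**
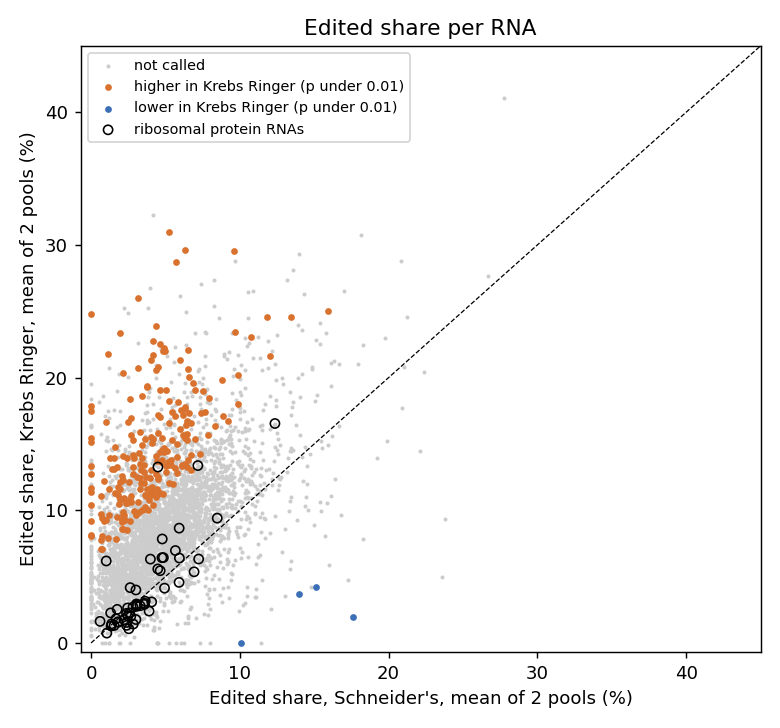
Edited share per RNA (%), mean of the 2 Krebs Ringer pools against the mean of the 2 Schneider's pools, with the dashed line of equal shares. Orange points are the 224 RNAs higher and blue points the 4 lower at limma p under 0.01, open circles are the ribosomal protein RNAs, and 1 RNA with shares above 45% (a pre-rRNA) lies beyond the axes. Most RNAs lie above the line, and the ribosomal protein RNAs lie along it.

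Of the called RNAs, 100 had at least 100 reads in every pool and pools that did not overlap, all of them higher. The largest rise among them was in edl, which encodes a small SAM domain protein that modulates ETS transcription factors, with 2.89% and 3.96% edited reads in Schneider's and 19.5% and 17.8% in Krebs Ringer. The gap between its groups was many times the spread within each (difference 15.2 ± 1.4 percentage points, SE, limma adjusted p = 0.169). LeuRS-m, the mitochondrial leucyl-tRNA synthetase, went from 5.46% and 7.66% to 20% and 20.1%. THADA went from 4.14% and 4.83% to 14.4% and 19.9%. The order of size then ran through ast, sba, CG14696, Etl1, key, lute and CG3735, whose mean shares rose by 11.5 to 12.5 percentage points. Among these, key encodes the IKK-gamma subunit of the fly's immune deficiency pathway, and its pools were at 2.38% and 0.645% in Schneider's and at 14.3% and 11.9% in Krebs Ringer. With the average editing frequency over positions, in place of pooled reads, the difference of THADA turned to −1.82 percentage points.

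The 4 lower calls were CG11583, CG17807, Nak and TBPH, named here for being so few. TBPH, the fly TDP-43, an RNA-binding protein of stress granules, was edited in 10.4% and 9.72% of reads in Schneider's and in no read of either Krebs Ringer pool, where 3 reads would have been 4.62% of 65 and 9.68% of 31 reads. Nak, a kinase linked to Numb, had 12.9% and 15.1% in Schneider's and 2.60% and 4.76% in Krebs Ringer. CG17807 went from 14.4% and 15.9% to 2.50% and 5.88%, and CG11583, with 1 position, from 19.1% and 16.1% to 3.85% and to none of 29 reads, of which 3 would be 10.3%.

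Of 12 RNAs studied earlier in these cells, 6 had both Krebs Ringer pools above both Schneider's pools, against 61.7% of all RNAs. The 12 include the source genes of the fusion, and none was called, against 5.57% of all RNAs called higher. The median difference of the 12 was 2.73 percentage points, against 3.53 over all RNAs. For row, a zinc finger protein RNA, the pools were at 6.99% and 4.89% in Schneider's and at 10.5% and 11.7% in Krebs Ringer. The arsenite pools of row stood at 21.2% and 20.4%. For cbt, another zinc finger regulator, 0.674% and 0.922% in Schneider's stood against 5.29% and 3.43% in Krebs Ringer, with 9.89% and 8.78% in arsenite. Khc, the kinesin heavy chain, was at 2.24% and 1.70% in Schneider's and at 4.86% and 5.67% in Krebs Ringer, and its arsenite pools were at 12.0% and 11.8%. In each of these the Krebs Ringer and Schneider's pools did not overlap. The arsenite pools are given beside them and share the Schneider's pools as their controls. The zinc finger RNA pzg had 5.03% and 4.11% against 7.55% and 8.57%. Rack1, a ribosome-bound scaffold, did not separate, with 3.12% and 2.92% in Schneider's and 4.28% and 2.09% in Krebs Ringer. Cyt-c-p, kermit and Prosbeta4 overlapped as well, on 54 to 136 reads in the pools of Prosbeta4. geminin, with 1 position, had 1.75% and no edited read of 63 (3 would be 4.76%) in Schneider's against 5.71% and 14.04%, and red had 1.53% and 0.614% against 1.796% and 2.69%.

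The RNAs of the fusion's own source genes did not follow the general rise. Fmr1 was edited at 4.81% and 4.94% in Schneider's and at 4.60% and 4.37% in Krebs Ringer, a difference of −0.39 ± 1.21 percentage points. Adar was edited at 8.11% and 10.2% in Schneider's and at 6.66% and 5.75% in Krebs Ringer, a difference of −2.97 ± 1.48 (limma adjusted p = 0.28). In both, the Krebs Ringer pools lay below the Schneider's pools, although neither was called, and leaving both genes out of the pooled share changed it little (7.70% and 8.04% against 5.27% and 4.65%). The reads of these genes mix the transgene with the endogenous RNA.

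Ribosomal protein RNAs also stayed apart from the rise. Of 51 that entered this comparison, none was called, 12 (23.5%) had both Krebs Ringer pools above, against 61.7% of all RNAs, and 8 had both below. Their median difference was −0.16 percentage points, and the median member had 3.05% in Schneider's and 2.84% in Krebs Ringer. RpL4 had 5.79% and 6.09% in Schneider's and 6.73% and 6.07% in Krebs Ringer. RpL6 had 4.33% and 3.83% in Schneider's, then 3.39% and 2.80% in Krebs Ringer. RpLP0, a stalk protein, had 6.97% and 7.49% in Schneider's, then 6.35% and 6.30% in Krebs Ringer. In RpL6 and RpLP0 the Krebs Ringer pools were the lower ones, and in RpL4 the groups overlapped. In the wells matched for Adar the median of the list was −2.21 percentage points, against −0.20 over all RNAs.

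The other lists had medians above 0, with few calls in any, to be read against the 5.57% of all RNAs called higher. Translation factors had a median difference of 1.90 percentage points with 0 of 34 called, and eEF2, the elongation factor with the most reads, was at 3.43% and 3.22% in Schneider's and at 3.54% and 3.28% in Krebs Ringer. For granule and RNA-binding proteins the median was 2.53 with 1 of 33 called, TBPH. The poly(A)-binding protein RNA pAbp, the most read of them, had 5.11% and 5.403% against 5.36% and 5.38%. Starvation and TOR signalling genes had a median of 3.25 with 0 of 26 called, and their most read member Myc, a growth regulator, had 3.49% and 3.69% against 6.89% and 7.07%. ER exit site and Golgi genes had a median of 3.29, and 22 of 25 (88.0%) had both pools above, against 61.7% of all RNAs and 81.9% of the 1005 RNAs with the most reads. The single call among them was Tango1, an ER exit site organiser for bulky cargo, at 1.39% and 2.39% in Schneider's and at 10.5% and 10.6% in Krebs Ringer. Chaperones (0 of 26 called, median 2.06), the cytoskeleton (0 of 28, median 2.09) and respiratory chain RNAs (1 of 33, ND-24, median 1.86) had smaller medians than all RNAs.

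Sugar and storage metabolism held 3 of the calls, from 18 measured members of glycolysis and energy sensing (against 5.57% of all RNAs), which are named here for being called. Treh, the trehalase that splits the fly's blood sugar, had 2.27% and 2.08% edited reads in Schneider's and 21.6% and 19.2% in Krebs Ringer. GlyP, glycogen phosphorylase, had 6.49% and 2.27% against 25.97% and 21.9%. AGBE, the glycogen branching enzyme, had 2.56% and 2.27% against 16.4% and 11.4%. Each had fewer than 100 reads in every pool. GlyS, the glycogen synthase, had more reads and was not called, at 3.31% and 2.64% against 5.73% and 4.43%. Autophagy and lysosome genes held 2 calls of 27, not far from the 5.57% of all RNAs. Both pools lay above in 40.7% of this list, against 61.7% of all RNAs. Its median difference was 2.42 percentage points, against 3.53. The 2 called were Atg6 and Pi3K59F, partners in the lipid kinase complex that starts autophagosomes. Atg6 went from 5.88% and 2.44% to 22.9% and 20.6%, and Pi3K59F from 1.28% and 1.24% to 12.7% and 15.1%. Cell cycle genes held CycD and CycB3 (2 of 30), the proteasome Prosbeta7 and Rpn10 (2 of 30), and the aminoacyl-tRNA synthetases TrpRS (1 of 18). These counts are also near the 5.57% of all RNAs. All of these calls rest on p under 0.01 with an adjusted p of 0.169.

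At single positions the same rise was seen. Of 21840 positions with at least 20 reads in every pool, in 1962 genes, 7790 (35.7%) were higher in Krebs Ringer on both plates and 2122 (9.72%) lower on both. The median position went from 2.35% to 4.26%. Edited reads were found in Krebs Ringer alone at 3316 positions and in Schneider's alone at 1450, although Krebs Ringer had fewer reads. The rise differed by gene part: 43.6% of 1294 positions in 5′ UTRs were higher on both plates, 36.1% of 17710 in coding sequence and 28.6% of 2320 in 3′ UTRs. Medians were 0.794% and 3.57% in 5′ UTRs, and 3.33% and 4.17% in 3′ UTRs, in Schneider's and Krebs Ringer. ADAR prefers certain bases beside the adenosine and disfavours a G before it. A G stood before 5.26% of all these positions and before 4.43% of the 1739 that were higher on both plates with a mean rise of at least 10 percentage points, and a T stood before 34.9% and 41.2%. A C followed in 26.4% of all and in 30.5% of the 1739, and a G in 47.6% and 47.0%. The 1739 were selected for a large rise, and their median in Schneider's was already 5.72%. By the base before, the share of positions higher on both plates hardly differed: 34.9% with A, 36.1% with C, 35.0% with G and 36.1% with T. By the base after, it was 31.3% with A, 38.35% with C, 35.35% with G and 35.9% with T.

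Of the 6 positions with the largest rise, 5 are shown with the base before and after the edited adenosine (Gp210, the other one, is given by its values only), in transcript orientation with the edited base in capitals. These were picked for their size, so their values are a description.
FASN1: tAc
CCT7: aAg
Atpalpha: tAt
Der-1: tAc
Pvr: aAg
In the 5′ UTR of FASN1, the fatty acid synthase (2L:3056656, BDGP6, plus strand), 11.1% and 6.14% of reads were edited in Schneider's and 47.8% and 63.2% in Krebs Ringer, which were 43 edited reads in each Krebs Ringer pool. In the coding sequence of Gp210, a nuclear pore membrane protein (2R:5761417), the shares were 4.35% and 3.85% against 52.7% and 47.2%. CCT7, a subunit of the TRiC chaperonin (3R:8801992, coding sequence), had 14.6% and 11.4% against 45.1% and 44.8%. Atpalpha, the sodium pump subunit (3R:20966013, coding sequence), had 5.56% and 10.8% against 39.0% and 36.1%. In the 3′ UTR of Der-1 (2L:1975238), an ER-associated degradation factor, 0.820% and none of 99 reads in Schneider's stood against 37.9% and 21.1% in Krebs Ringer. Pvr, a receptor tyrosine kinase (2L:8223046, minus strand, coding sequence), had 6.42% and 13.98% against 40.4% and 37.5%. None of these pools overlapped, and each position had at least 50 reads in every pool. The largest falls were smaller: Hsp83 (3L:3196916, 3′ UTR) went from 45.7% and 50.5% to 36% and 37.1%, sqd (3R:13640105, 3′ UTR) from 23.2% and 30.3% to 20.8% and 8.91%, and Cka (2L:8037342, coding sequence) from 32.5% and 50% to 24.1% and 25%.

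The share of reads per RNA changed in both directions. RNAs passed the adjusted threshold here, which none did for the edited share in its main fit. The counts and their balance of direction moved with the scale and with the wells entered. Reads at all 309434 single-base variant positions were summed per gene, from 8628394 to 11430285 reads per pool, scaled to RPM and compared as log2(RPM + 1). Of 7053 RNAs with at least 20 reads over the 4 pools, 325 (4.61%) were higher and 651 (9.23%) lower in Krebs Ringer at a limma adjusted p under 0.05. With the median ratio in place of total reads as the scale, 562 were higher and 334 lower, which is 62.7% of calls higher in place of 33.3%. Leaving out 1 pool left 191 (without the Krebs Ringer pool of plate 1) to 280 higher and 311 (without the Schneider's pool of plate 2) to 477 lower. The median log2 difference of all RNAs was −0.13, and list medians below should be read against it. Within the wells matched for Adar, 62 were higher and 59 lower of 6384, in pools of 23 and 31 Krebs Ringer wells and 38 and 31 Schneider's wells.

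Several RNAs known to respond to starvation rose. Of 30 starvation and TOR signalling RNAs, 5 rose (against 4.61% of all RNAs) and 1 fell. Without the Krebs Ringer pool of plate 1, 3 of 30 rose, and in the wells matched for Adar 1 of 30. InR, the insulin receptor and a FOXO target, took 99.1 and 108.7 RPM in Schneider's and 298 and 229 in Krebs Ringer (log2 difference 1.32 ± 0.13, limma adjusted p = 4.2e-06). ImpL2, a secreted antagonist of insulin-like peptides, took 1170 and 1410 RPM in Schneider's and 2744 and 2430 in Krebs Ringer (1.01 ± 0.09). REPTOR, a transcription factor held in check by TOR, went from 342 and 332 RPM to 851 and 546 (1.02 ± 0.14). Thor, the fly 4E-BP, a repressor of cap-dependent translation, was low throughout and went from 2.98 and 1.34 RPM to 11.4 and 5.56 (1.57 ± 0.34). None of these groups overlapped, and every Krebs Ringer pool stood above every Schneider's pool. Myc rose by a log2 of 0.35 ± 0.09, and Iml1, a GATOR subunit that restrains TOR, fell from 52.1 and 47.7 RPM to 34.3 and 26.2. Thor, InR, ImpL2 and REPTOR were then summed per well. They were picked for rising in these same pools, so a higher sum is a description and no further support. ImpL2 had the most reads of them in every pool. The sum had medians of 28.8 and 28.7 per 10000 reads in Krebs Ringer and 14.2 and 15.5 in Schneider's. In the 20 and 15 Krebs Ringer wells with under 4 Adar reads per 10000 its medians were 28.2 and 31.7, against 12.4 and 11.8 in Schneider's wells of that level. In the wells with 4 to 16 Adar reads per 10000 the medians were 25.1 and 23.3 in Krebs Ringer and 15.4 and 22.2 in Schneider's, so that on plate 2 the matched wells hardly differed (pooled levels 25.3 and 25.01). Beside these, InR stood at 146 and 150 RPM in arsenite and at 83.3 and 69.5 RPM in the short induction, and ImpL2 at 1660 and 1868 in arsenite. Arsenite pools of REPTOR stood at 408 and 565 RPM, on plate 2 above Krebs Ringer, and those of Thor at 3.23 and 4.11 RPM. Myc was higher in arsenite (1344 and 1396 RPM) than in Krebs Ringer (1112 and 1057). In all 5 RNAs that rose, the arsenite pools also lay above both Schneider's pools.

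Glycolytic genes split. Hex-A, the main hexokinase, went from 412 and 429 RPM to 1101 and 1124 (log2 difference 1.40 ± 0.09, limma adjusted p = 1.5e-08). The pools of each group lay close together and the groups 2.64-fold apart. Arsenite pools of Hex-A were at 490 and 569 RPM. Ald, the aldolase, rose from 475 and 460 to 746 and 782 RPM, and Treh by a log2 of 0.58 ± 0.17. Tpi, triose phosphate isomerase, fell from 33.6 and 33.7 to 14.3 and 21.6 RPM. Together 3 of 21 rose and 1 fell, against 4.61% and 9.23% of all RNAs. Respiratory chain RNAs stayed near 0, with 1 of 66 (ND-B15) lower and a list median of −0.02.

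**Figure D4:**
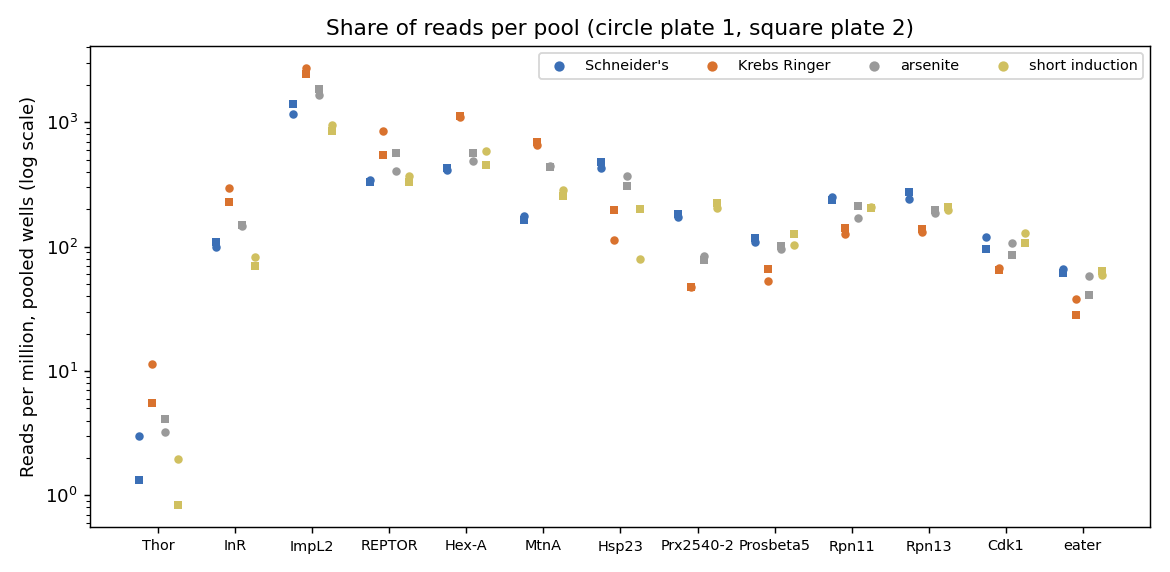
RPM (log axis) of 13 RNAs in the pools of 4 populations, circles for plate 1 and squares for plate 2. The Krebs Ringer pools of InR, ImpL2, Hex-A and MtnA lie above and those of Hsp23, Prx2540-2, Prosbeta5, Rpn11 and Rpn13 below both Schneider's pools.

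Proteasome RNAs fell together. Of 33 measured, 28 were lower (against 9.23% of all RNAs) and none higher, with a median log2 difference of −0.57 against −0.13 over all RNAs. On the median-ratio scale 19 of 33 were lower, and leaving out 1 pool left 20 to 26. The list summed to 11220 and 11230 RPM in Schneider's and to 7364 and 8144 in Krebs Ringer, with 8972 and 8883 in arsenite and 9694 and 10070 in the short induction. All parts of the particle took part. In the catalytic core, Prosbeta5, the chymotrypsin-like subunit, went from 109.5 and 117.5 RPM to 53.0 and 66.5 (−0.92 ± 0.14, limma adjusted p = 3.8e-04). In the lid, Rpn11, the deubiquitinase, went from 250.3 and 238 to 127 and 142 RPM (−0.86 ± 0.11). In the base, the ubiquitin receptor Rpn13 went from 242 and 275 to 132 and 138 RPM (−0.92 ± 0.11), and Rpn2, a scaffold, from 1376 and 1347 to 752 and 864 RPM. None of these pools overlapped. The ATPase relative Rpt6R fell most (−1.16 ± 0.15). The 5 that were not called, Prosbeta1, Prosbeta3, Prosbeta7, Rpt1 and Rpt3R, had log2 differences between −0.26 and −0.42.

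The fall of the proteasome RNAs was spread over the wells. Proteasome reads per 10000 had a median of 66.3 and 79.0 in Krebs Ringer wells, with 10th to 90th percentiles of 45.2 to 108.2 and 44.1 to 112.5. Schneider's wells had medians of 103.9 and 109.9, with percentiles of 67.6 to 156 and 62.0 to 169. The wells were also split by their Adar level, and whether the fall depends on that level was not tested. In wells with under 4 Adar reads per 10000 the medians were 66.6 and 72.2 in Krebs Ringer and 111.6 and 109 in Schneider's. In Krebs Ringer wells with 16 or more they were 66.4 and 78.0, and the only 6 and 2 Schneider's wells there had 104.5 and 108.6. Between 4 and 16, where the wells were matched, the medians were 64.3 and 83.3 in Krebs Ringer and 92.1 and 110.4 in Schneider's. Pooled levels there were closer, at 84.4 and 86.9 against 106 and 102. In these matched wells 2 of 33 RNAs were called lower with a median log2 difference of −0.27, Rpn6 and Rpt6 being slightly above 0.

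**Figure D5:**
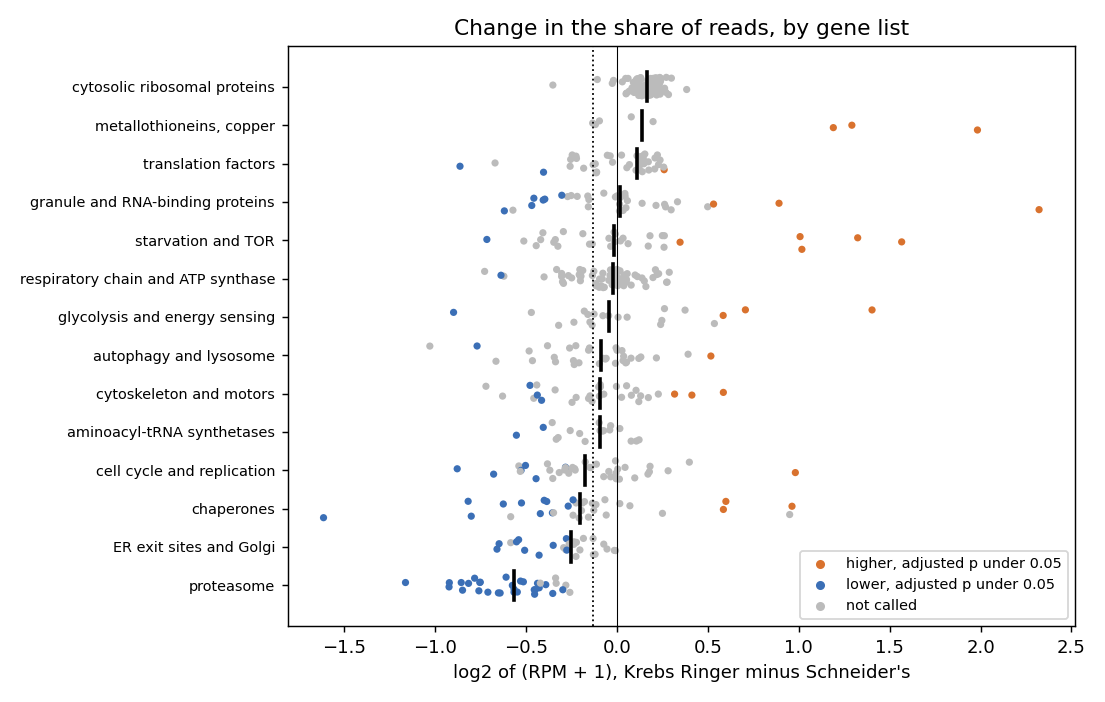
Difference in log2(RPM + 1), Krebs Ringer minus Schneider's, for each measured member of 14 gene lists, with black bars at list medians and the dotted line at the median of all RNAs (−0.13). Orange and blue points are members higher and lower at a limma adjusted p under 0.05. The proteasome has 28 of 33 members lower, and ribosomal protein RNAs cluster at a median of 0.17 with none called.

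All 4 measured small heat shock protein RNAs fell, and the Hsp70 family and its partners split. Of 32 chaperone RNAs 11 fell (against 9.23% of all RNAs) and 3 rose. On the median-ratio scale 7 fell, leaving out 1 pool left 6 to 9, and in the wells matched for Adar 4 of 31 fell. Hsp23 went from 432 and 483 RPM to 112.5 and 196 (−1.61 ± 0.17, limma adjusted p = 8.3e-06). Hsp26 went from 789 and 832 to 385 and 547 RPM and Hsp27 from 93.4 and 108.4 to 47.5 and 69.0. These 3, with Hsp22, were carried by few wells. The median Schneider's well had 3.04 and 2.50 of their reads per 10000 and the 90th percentile well 50.2 and 66.1, and in Krebs Ringer the medians were 2.75 and 3.43 and the 90th percentiles 21.3 and 30.4. The median well thus did not differ in a common direction on the plates, and the upper tail was lower. Short induction pools, also in Schneider's, were low as well: Hsp22 at 55.2 and 99.9 RPM, Hsp23 at 79.3 and 201, Hsp26 at 226 and 544, and Hsp27 at 38.7 and 88.5. Each of these lay below both 4 h Schneider's pools. In arsenite Hsp23 was below both Schneider's pools too, while Hsp22, Hsp26 and Hsp27 were above. DnaJ-1, an Hsp40, rose from 530 and 495 to 794 and 759 RPM, and Hsp68 from 1275 and 1002 to 1614 and 1782. Hsp70Bb also rose, but it has near-identical copies, so its reads are uncertain, and Hsp70Aa, Hsp70Ab, Hsp70Ba and Hsp70Bc were not called. Other Hsp70 partners fell, the exchange factor Hsc70Cb by −0.63 and the Hsp40 protein Droj2 by −0.42. Among the cytosolic folding machines, CCT4, CCT5, CCT7 and CCT8 of the TRiC chaperonin fell by log2 values between −0.24 and −0.39.

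ER exit site and Golgi RNAs leaned downward, with 9 of 26 lower (against 9.23% of all RNAs), none higher and a median of −0.25. On the median-ratio scale 4 of 26 were lower, with either Schneider's pool left out 5, and in the wells matched for Adar 1. Sec13 and Sec31, the outer COPII coat, fell by −0.55 ± 0.10 and −0.54, and Sec13 went from 697 and 742 RPM to 443 and 541. Grasp65, a Golgi stacking protein, went from 419 and 406 to 251.5 and 269.7 RPM. The COPI subunits zetaCOP, epsilonCOP, betaCOP and beta'COP fell by −0.65, −0.51, −0.35 and −0.28. The vesicle tether p115 and the COPII inner coat Sec23 complete the 9.

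Of 34 stress granule and P-body components 6 fell and 3 rose, Fmr1 among the latter, which leans the same way as all RNAs (9.23% lower and 4.61% higher). rin, the fly G3BP that nucleates stress granules, went from 1555 and 1533 RPM to 1114 and 1217 (−0.41 ± 0.08, limma adjusted p = 0.0031). Atx2, me31B, the 5′ to 3′ exonuclease pcm, gw and Rox8 fell by log2 values between −0.30 and −0.62. brat, a translational repressor, rose from 501 and 488 to 974 and 866 RPM. On the median-ratio scale 6 of this list rose and 2 fell, and in the wells matched for Adar none rose and 1 fell.

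Ribosomal protein RNAs had a median log2 difference of 0.17 with none of 85 called, and on the median-ratio scale 36 of them passed as higher. Their sum was 31800 and 33880 RPM in Schneider's and 35150 and 39090 in Krebs Ringer. Among 41 translation factors eEF1alpha1 rose by 0.26 ± 0.08, while eIF6, an anti-association factor of the large ribosomal subunit, fell from 156 and 212 to 88.9 and 110.9 RPM, and eEF1delta fell too. In autophagy and lysosome genes (34 measured) the cathepsin Cp1 rose from 860 and 771 to 1224 and 1109 RPM, and ref(2)P, the p62 cargo receptor, fell from 465 and 435 to 288 and 241 RPM. Both other populations also had less ref(2)P than Schneider's, with 310 and 296 RPM in arsenite and 237 and 231.5 in the short induction. Of 39 cell cycle RNAs 6 fell and 1 rose, not far from the 9.23% and 4.61% of all RNAs, the shares that the few calls of the translation and autophagy lists should also be read against. Cdk1, the mitotic kinase, went from 119 and 96.1 to 67.3 and 65.5 RPM, aurA fell by −0.88 ± 0.22, and CycB by −0.53 ± 0.11, although CycB stood at 0.20 in the wells matched for Adar. stg, the Cdc25 phosphatase that triggers mitosis, went the other way, from 853 and 593 to 1343 and 1469 RPM. In the cytoskeleton list (30 measured) 3 rose and 3 fell, and of 18 aminoacyl-tRNA synthetases CysRS and GlnRS fell, both lists near the share of all RNAs for the falls. Of the cytoskeletal falls, the mitotic motors Klp61F and pav turned to 0.32 and 0.30 in the wells matched for Adar.

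Outside the lists, the largest rises among the 312 called RNAs with at least 100 Krebs Ringer reads were in CG12947 and CG7142. CG12947 took 0.612 and 0.862 RPM in Schneider's and 13.8 and 12.1 in Krebs Ringer (3.00 ± 0.28), on 7 reads in Schneider's pool 1. CG12947 (3R:9780064-9783054) and CR31514 (3R:9779519-9782693, opposite strand), which rose by 1.98 ± 0.21, overlap each other, so that reads of one may have been counted for the other, and lie 353 and 714 bases from MtnA, so 3 of the 10 largest rises were in neighbouring genes. CG7142 went from 0.525 and 0.862 to 19.3 and 7.42 RPM. vri, a bZIP repressor of the circadian clock, rose from 38.8 and 31.4 to 203 and 129 RPM (2.18 ± 0.18), with 49.9 and 90.03 in arsenite. brk, a repressor of Dpp target genes, rose from 7.52 and 6.71 to 34.8 and 28.3 RPM. CG7530 and CG14961 followed at log2 differences of 1.96 and 1.95.

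The largest falls were in CR43701 (−2.10 ± 0.29) and in Prx2540-2, a peroxiredoxin, which went from 173 and 184 RPM to 47.0 and 47.3 (−1.90 ± 0.13). Prx2540-2 has a near-identical neighbour, Prx2540-1, which also fell (−1.51 ± 0.17), and their reads may be split between them. CG11825, 653 bases from Prx2540-2, fell from 84.7 and 142 to 32.6 and 32.2 RPM. pre-mod(mdg4)-B, Cyp12a5, Cubn, CG43189, CG11980 and Mtr3 fell by log2 values between −1.57 and −1.66, from levels of 18.1 RPM or less. Of the hemocyte markers, eater, a phagocytic receptor, fell from 66.1 and 61.8 to 38.1 and 28.3 RPM, crq fell by −0.37 and the GATA factor srp rose from 481 and 548 to 759 and 672 RPM. Among the RNAs studied earlier, cbt rose from 228 and 281 to 462 and 424 RPM, red rose by 0.53 ± 0.14, and pzg and Prosbeta4 fell by −0.39 and −0.52.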

How the data were processed

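Single S2 cells were index-sorted into plates and sequenced by VASA-seq, which captures total RNA with molecular identifiers. The processing notes of the submitters name cutadapt 3.2, BWA 0.7.17-r1188, STARsolo 2.7.7a, UMI-tools 1.1.1, GATK 4.1.9.0 and the build BDGP6. The deposited variant table holds, for each position, its bases, quality, strand and gene, and for each well whole read counts of the reference and the changed base, which the authors made after collapsing molecular identifiers. The authors also deposited a table of editing frequencies, a fraction per gene and well, which holds no Krebs Ringer wells. Computed from the variant table, this fraction was equal (tolerance 1e-06) in all 183 Schneider's wells for 5694 of 5702 matched genes. The average editing frequency of Krebs Ringer wells was computed in the same way. Tables of the authors' comparisons (fold changes and p-values) were not used, and 20 libraries without a matching label were left out. These include 3 bulk S2 libraries with KRB in their names, which may stand for the same buffer and were not analysed here.

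Only positions called A-to-G with quality over 250 entered the edited shares, and those at an allele frequency of 0.95 or more were dropped. Reads were summed over kept wells per plate and population, since wells are not replicates. Edited shares (at least 20 reads in every pool and an edited read in any) and log2(RPM + 1) were fitted in limma (version 3.58.1, R 4.3.3). The threshold was p under 0.01 for edited shares and Benjamini-Hochberg adjusted p under 0.05 for shares of reads. The RPM of a gene counts only reads at its variant positions, so levels were not compared between genes. Pooled shares were compared with the exact permutation test (scipy 1.17.1). The plate number in the labels pairs the pools. Deviations of the pools of each plate from their group means had correlations across genes of 0.03 for shares of reads and 0.01 for edited shares. On simulated data, 10.5% of 2-fold changes in edited share (3994 genes) and 87.4% of 2-fold changes in share of reads (7005 genes) were recovered, and 0.896% and 0.103% of unchanged genes passed. The simulation used the real depths, but its spread between pools was assumed and not estimated from these pools. It changed only a small part of the genes, unlike the upward shift of most edited shares here. Its rates are therefore not those of this comparison. Doublets were gated out by the authors at the sort, and no doublet caller was run. Each well has its own name and none was listed more than once.

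The comparison and the gene lists were chosen with earlier results of these data known. Named RNAs are those studied earlier in these cells, with Fmr1 and Adar, the 10 called RNAs with the largest change in either direction and at least 100 reads (in every pool for editing, in the higher group for shares of reads), the 3 members of each list with the most reads (of which the text gives 1 for most lists), and the 6 positions with the largest rise and 3 with the largest fall among those with at least 50 reads in every pool. Other RNAs are named for being called in a list. Alternatives changed the minimum of reads, the call quality, the scale, the pseudocount, the model, the block and the pools entered.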

Additional observations from a re-analysis of the deposited data

Results flagged for a closer look

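The 32 wells of column 24, which were meant to hold no cell and enter no comparison, were singled out because edited reads appeared in them above the level of the uninduced bulk sample. They had 4048 reads at A-to-G positions in all, from 2 to 587 per well with a median of 93, and 306 of these reads were edited. This is a share of 7.56% (95% Clopper-Pearson interval 6.76 to 8.42%, counting error only). The Krebs Ringer pools had 7.68% and 8.02%, the Schneider's pools 5.27% and 4.66% and the uninduced bulk sample 0.453%. On the same plates the arsenite pools had 12.4% and 11.6% and the short induction pools 4.51% and 4.35%, so the empty wells lay within the range of all populations. None of these wells reached 4000 reads. Where their reads came from was not tested.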

How the results depend on the processing

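The difference in pooled edited share (2.88 percentage points) was 5.27 with a call quality above 1000 and 4.08 with the average editing frequency over genes, 2.40 to 3.36 with 1 plate left out, and −0.37 in the wells matched for Adar, an alternative added after seeing the data. The A-to-C difference was −1.88 with a call quality above 1000 and −0.18 to 0.13 with 1 plate left out. The counts of RNAs higher and lower in edited share (224 and 4) were 523 and 2 with a trend on reads, 108 and 6 with the replicate block, which kept 79 and 4 of the same RNAs, 0 and 0 at an adjusted p under 0.05, and 47 and 21 divided by the share of all reads. They were 20 to 238 and 1 to 7 with 1 pool left out, 406 and 1 with at least 300 reads and an adjusted p, and 15 and 13 in the matched wells, these last 2 added after seeing the data, as was the trend with an adjusted p (178 and 0). The lower count was 7 with the arcsine square root, 0 with at least 50 reads, 17 with at least 1 read, 8 with all 8 pools in 1 fit and 9 with the average editing frequency. The counts for shares of reads (325 and 651) were 562 and 334 scaled by the median ratio, 0 and 0 with no minimum of reads (limma, with 1868 at an unadjusted p under 0.05), 62 and 59 in the matched wells, and 191 to 280 and 311 to 477 with 1 pool left out. With the replicate block they were 319 and 627. The cause of these changes was not tested. Single RNAs turned direction as follows: THADA −1.82 percentage points with the average editing frequency, and in the matched wells log2 differences of 0.20 for CycB, 0.32 for Klp61F, 0.042 for Rpn6, 0.049 for Rpt6 and 0.30 for pav. With 1 pool left out, the lone pool is assumed to vary like the others. Single RNAs with few reads, and 2 pools per group, limit what the edited shares can show.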
